A study of Homo sapiens with 4 samples.

Results

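Fc, complement and phagocyte integrin receptors are the surface proteins by which myeloid cells bind particles and immune complexes coated with antibody or complement. Genes for 10 of them were taken by symbol from the 20348 genes of the deposited count table, and all 10 were found: FCGR1A, FCGR2A, FCGR2B and FCER1G (Fc receptors), C3AR1, C5AR1 and CR1 (complement receptors), and ITGAM, ITGAX and ITGB2 (integrin chains). RNA had been sequenced from K562, a human chronic myeloid leukemia line with erythroid features, and from THP-1, a human acute monocytic leukemia line. Each line had been kept for 72 h in the solvent DMSO or in 100 nM periplocin, a cardiac glycoside extracted from Cortex periplocae. The sample titles call the controls blank, while their library names give DMSO. There were 4 libraries, 1 per line and treatment, and the study states that each was a single biological replicate, so no difference below has a replicate check and every interval covers counting error only.

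Antibodies of the IgG class are bound by the Fcγ receptors. The high-affinity receptor FcγRI (FCGR1A, also CD64) signals through the common γ chain (FCER1G), whose ITAM motif recruits the kinase SYK, whereas FcγRIIA (FCGR2A, CD32A) carries an ITAM in its own tail, and FcγRIIB (FCGR2B, CD32B) carries an inhibitory ITIM that recruits phosphatases and dampens the other receptors. The fragments C3a and C5a released by complement activation are sensed by the G protein-coupled receptors C3AR1 and C5AR1, and C3b that stays on a particle is bound by CR1 (CD35) and, once cleaved to iC3b, by complement receptor 3 (ITGAM with ITGB2, CD11b/CD18) and complement receptor 4 (ITGAX with ITGB2, CD11c/CD18). These receptors are typical of monocytes, macrophages and neutrophils, and CR1 is also known from red blood cells, where it carries immune complexes. All values below are RNA levels, so surface protein was not measured.

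The Fc receptor genes lie on chromosome 1 of GRCh38. In GENCODE release 29, FCER1G (ENSG00000158869) spans 161215234 to 161220699, FCGR2A (ENSG00000143226) spans 161505430 to 161524013 and FCGR2B (ENSG00000072694) spans 161663147 to 161678654, all on the plus strand. FCGR1A (ENSG00000150337) lies farther off, from 149782671 to 149792518, and CR1 (ENSG00000203710) from 207496147 to 207641765, both on the plus strand. ITGAM (ENSG00000169896, 31259967 to 31332892) and ITGAX (ENSG00000140678, 31355134 to 31382997) are neighbors on the plus strand of chromosome 16. C3AR1 (ENSG00000171860) lies on the minus strand of chromosome 12 (8058302 to 8066471), C5AR1 (ENSG00000197405) on the plus strand of chromosome 19 (47290023 to 47322066) and ITGB2 (ENSG00000160255) on the minus strand of chromosome 21 (44885953 to 44931989).

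RefSeq start sites on GRCh38.p14 gave the 250 bases upstream of 8 of the 10 genes (all but ITGAX and ITGB2), in 9 windows because FCGR2B has a pair of start sites. These windows were read for GAGGAA, which on the opposite strand reads TTCCTC and holds the core letters of many binding sites of the myeloid factor PU.1, and for TTCNNNGAA, the letters of STAT-type sites, which read the same on both strands. GAGGAA was found in 5 of the 9 windows, each of another gene, against 23.6% of all 35116 windows of this length, and TTCNNNGAA in 2 of them, against 6.57%. The windows of 4 of the 5 genes with a match are shown, to set the like positions in FCGR1A and FCGR2A beside the paired matches in FCGR2B and C5AR1, and capitals mark the matches. They were chosen with the responses known, and C3AR1, which like C5AR1 fell in K562 and rose in THP-1, held no match.
FCGR1A, chr1:149782444-149782693, plus strand: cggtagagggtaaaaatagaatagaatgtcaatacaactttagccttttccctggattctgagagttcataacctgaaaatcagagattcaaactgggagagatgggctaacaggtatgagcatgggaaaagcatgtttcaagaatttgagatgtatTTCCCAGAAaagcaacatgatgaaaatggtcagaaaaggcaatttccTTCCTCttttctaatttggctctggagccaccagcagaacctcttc
FCGR2A, chr1:161505207-161505456, plus strand: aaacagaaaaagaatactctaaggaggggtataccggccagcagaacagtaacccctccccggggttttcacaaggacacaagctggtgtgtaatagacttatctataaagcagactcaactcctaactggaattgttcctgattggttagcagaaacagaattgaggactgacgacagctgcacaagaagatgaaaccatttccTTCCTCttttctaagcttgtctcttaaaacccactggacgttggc
FCGR2B, second start site, chr1:161662893-161663142, plus strand: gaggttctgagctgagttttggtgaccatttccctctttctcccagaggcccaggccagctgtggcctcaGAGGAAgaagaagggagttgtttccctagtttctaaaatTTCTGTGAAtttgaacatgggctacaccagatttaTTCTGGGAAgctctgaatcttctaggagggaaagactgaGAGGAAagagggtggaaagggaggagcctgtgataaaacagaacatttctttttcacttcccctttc
C5AR1, chr19:47309611-47309860, plus strand: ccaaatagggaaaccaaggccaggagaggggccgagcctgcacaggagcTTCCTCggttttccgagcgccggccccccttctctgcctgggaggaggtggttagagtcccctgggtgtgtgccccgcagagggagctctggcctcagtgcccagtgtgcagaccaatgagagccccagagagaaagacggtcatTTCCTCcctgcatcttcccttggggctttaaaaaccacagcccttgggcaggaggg
The FCGR1A match of GAGGAA begins 46 bases before the start site and that of FCGR2A 45 bases before it. Both lie inside a run of 20 bases, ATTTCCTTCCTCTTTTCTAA, that these windows share and that occurred in 2 of the 35116 windows, whereas no other pair of the 9 windows shared more than 11 bases in a row. The FCGR2B window shown holds GAGGAA 180 and 67 bases before the start site and TTCNNNGAA 141 and 106 bases before it. C5AR1 has GAGGAA 201 and 56 bases upstream of a start site that lies inside the longer GENCODE gene, and ITGAM, not shown, has it 127 bases upstream. FCER1G, CR1 and C3AR1 held neither set of letters in these windows, and neither did the window at the first FCGR2B start site. A match of letters is a description of the sequence, and binding was not measured.

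Library totals ran from 16381158 to 20622681 counts, and mitochondrially encoded genes took 5.62% and 2.07% of them in K562 (DMSO and periplocin) and 5.24% and 3.92% in THP-1. The lines carried markers of their labels. Of 16 erythroid markers, all had counts in K562, their summed level went from 3167 CPM (counts scaled to the library total) in DMSO to 15673 CPM in periplocin, and 15 rose by the test described below, with EPB42, AHSP, SLC4A1, HBA2 and HBZ in the lead. Of 16 monocyte and macrophage markers, 15 had counts in THP-1, where their sum was 3029 CPM in DMSO and 2592 CPM in periplocin, with 3 higher (CD14 and CD68 among them) and 4 lower (MS4A6A, S100A9, S100A8 and MPO). Only FCN1 was at 0 there, and CD14 had 8 counts in DMSO. The sum of the same list was 113 and 125 CPM in K562, with 1 higher (CD14) and 3 lower (CEBPA, CD33 and AZU1), and MPO, CD163, FCN1 and S100A8 were at 0. Erythroid markers summed to 259 and 249 CPM in THP-1, nearly all of it TFRC (5083 and 4246 counts), with 0 higher and 2 lower (HBG2 and HBA2), and GYPB and AHSP were at 0. No lymphoid marker was called in either line. Lymphoid markers summed to at most 158 CPM in any library, of which NCAM1 gave most in THP-1 (3134 and 2428 counts). Among the neutrophil markers, CEACAM8 and CEACAM3 were at 0 throughout and FCGR3B had 4 counts in each K562 library and 0 in THP-1, while CSF3R fell in K562 (84 to 12 counts) and in THP-1 (2315 to 758 counts) and CXCR2 had 541 and 518 counts in THP-1. MMP8, LTF and CAMP had at most 4 counts in any library. These bulk values cannot tell fewer cells of a type from less RNA per cell, and the part of the erythroid rise in the K562 results below was not tested.

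In untreated cells the 10 genes fell into those that THP-1 expressed far above K562 and those whose levels were closer. Of the 10, 5 were at least 10 times as high in THP-1 DMSO as in K562 DMSO in CPM, against 11.8% of 14137 genes with at least 10 counts in the pair. The 10 were chosen with earlier results of these data known, so this share describes them and is no test. ITGB2, the β chain common to the leukocyte integrins, had 9118 counts in THP-1 DMSO and 9 in K562 DMSO, an 805-fold difference (95% interval 424 to 1760). FCER1G was 258-fold higher in THP-1 (interval 144 to 517) and FCGR1A 124-fold higher (interval 69.4 to 249.9). ITGAX was 46.9-fold and ITGAM 13.8-fold higher. The other 5 genes differed by less than 5-fold. FCGR2A was 1.45-fold (interval 1.34 to 1.57) and C3AR1 1.66-fold (interval 1.14 to 2.46) higher in THP-1. For FCGR2B and C5AR1 the ratio of THP-1 to K562 was 1.19 (interval 0.379 to 4.07) and 0.794 (interval 0.381 to 1.66), and both intervals include 1. CR1 went the other way and was 4.14-fold higher in K562 (interval 1.72 to 11.4).

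To set genes beside each other, CPM was divided by the kilobases of all annotated exons of a gene merged. That length can exceed the transcript a cell expresses, so the order of genes is approximate. FCER1G led in THP-1 DMSO at 179 CPM per kb, followed by ITGB2 at 65.0 and FCGR1A at 27.9. FCGR2A stood at 17.2, ITGAX at 7.68 and ITGAM at 4.88. C3AR1 followed at 1.99, C5AR1 at 0.279, FCGR2B at 0.0657 and CR1 at 0.0270. In K562 DMSO, FCGR2A led at 11.9 CPM per kb and the next was C3AR1 at 1.20, and the remaining 8 lay between 0.0551 (FCGR2B) and 0.697 (FCER1G). FCGR2A was also the only one of the 10 above 5 CPM in either K562 library. Per kilobase of merged exons, C3AR1 reached 38.2 in THP-1 with periplocin, past FCGR2A at 34.7, ITGAX at 11.8 and ITGAM at 10.5. In CPM it did not pass FCGR2A. There C3AR1 was at 82.0 CPM, below FCGR2A at 184 and ITGAX at 83.4 and above ITGAM at 60.0.

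**Figure D1:**
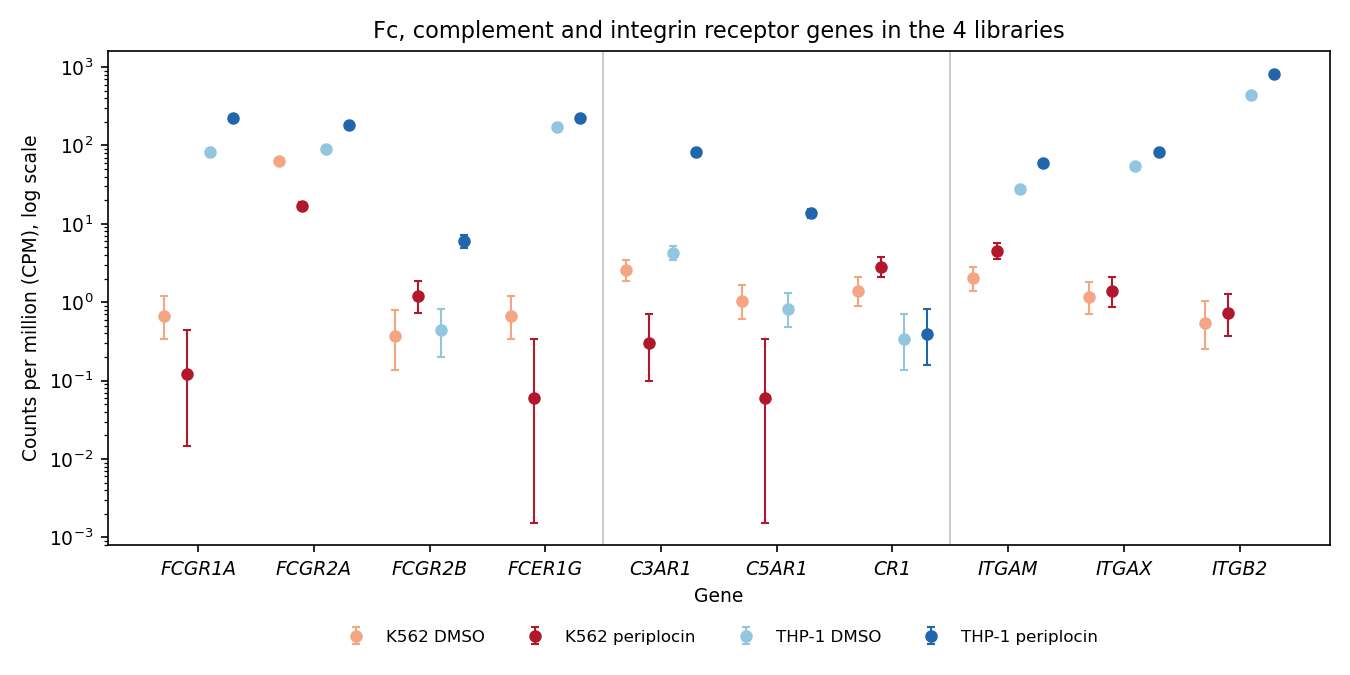
Level of each receptor gene in the 4 libraries, in CPM on a log axis, with 95% Poisson intervals as bars (1 library per point). FCGR2A is the only gene above 5 CPM in K562, and in THP-1 the periplocin point lies above the DMSO point beyond the intervals for all but CR1.

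The effect of periplocin was read within each line by an exact binomial test of the counts of its libraries, and a gene was called where the adjusted p was under 0.05 and the change at least 2-fold. As the 10 receptor genes were chosen with earlier results known, the shares called among them are descriptive only. In THP-1, 6 of the 10 receptor genes were called higher and 0 lower, against 18.0% of 16016 genes called in either direction (8.27% higher and 9.76% lower). C3AR1, C5AR1 and FCGR2B rose most, and FCGR1A, FCGR2A and ITGAM rose between 2.03-fold and 2.73-fold. In K562, 8 of the 10 were called, against 18.3% of 15912 genes, with 5 lower (background 10.1%) and 3 higher (background 8.18%). FCGR2A, C3AR1, C5AR1, FCER1G and FCGR1A fell, and ITGAM, FCGR2B and CR1 rose. FCGR2A is the only K562 call with over 100 counts in a library, and ITGAM, with 33 and 75 counts, is the next best counted. Where the mean level reached 1 CPM, the median log2 change of the receptors was 1.12 in THP-1 (9 genes) and 0.25 in K562 (5 genes), beside -0.02 and -0.01 over all such genes. That mean covers both libraries of a line, so these medians depend on the change itself. FCGR2B and C5AR1, under 1 CPM in THP-1 DMSO, entered there through the periplocin library. In K562, C5AR1, FCER1G and FCGR1A (called lower), FCGR2B (called higher) and ITGB2 (not called) stayed out.

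**Figure D2:**
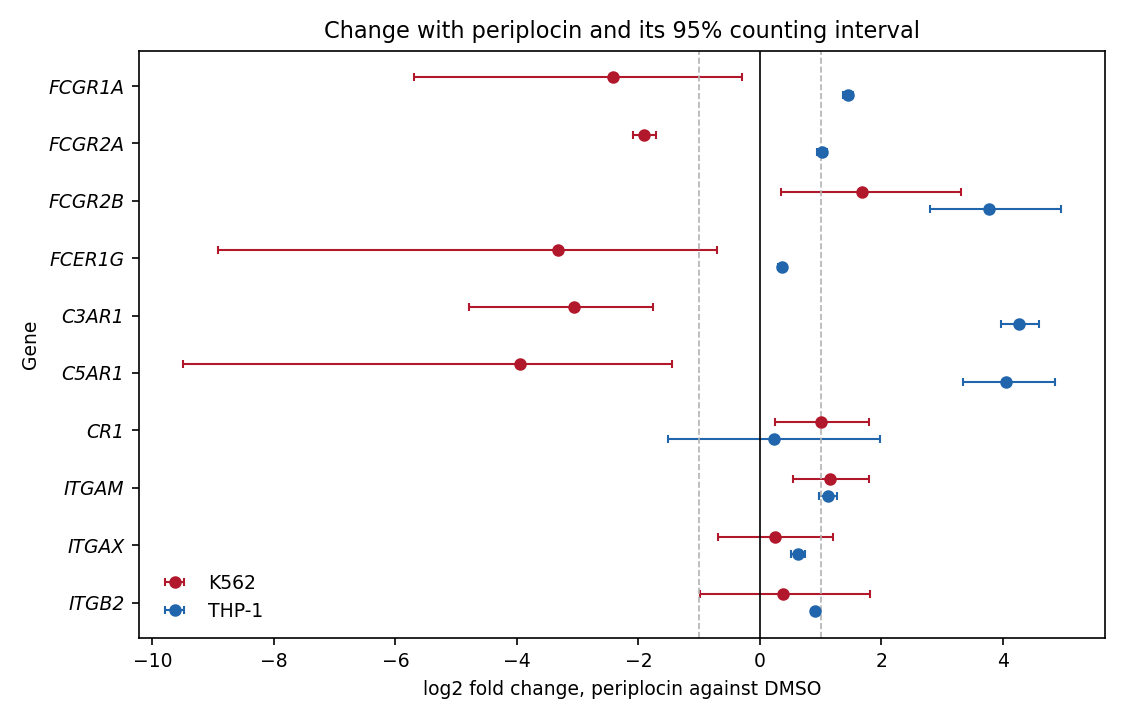
Log2 fold change of each receptor gene with periplocin in K562 (red) and THP-1 (blue), with 95% counting intervals as bars and dashed lines at a 2-fold change. The intervals of FCGR1A, FCGR2A, FCER1G, C3AR1 and C5AR1 lie on opposite sides of 0 in the lines, and those of ITGAM lie on each other.

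FCGR1A, the high-affinity IgG receptor, had 1724 counts in untreated and 4006 in treated THP-1 (83.6 and 226 CPM). The log2 change was 1.45 (95% interval 1.36 to 1.53, adjusted p = 2.3e-290). In K562 it had 11 and 2 counts, a 5.60-fold lower level with an interval of 1.22 to 52.0 (adjusted p = 0.0217). The treated THP-1 library was thus the highest of the 4, and both K562 libraries were near the detection limit.

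FCGR2A, the IgG receptor for which K562 is commonly used, had 1033 counts in K562 DMSO and 282 in K562 periplocin (63.1 and 17.0 CPM). This is a log2 change of -1.90 (interval -2.09 to -1.71, adjusted p = 1.1e-102), and among the 10 receptors it is the best measured change in K562. In THP-1 it had 1886 and 3266 counts (91.5 and 184 CPM), with a log2 change of 1.02 (interval 0.94 to 1.11, adjusted p = 8.1e-137). FCGR2A thus fell in the line where it is the leading receptor gene and rose in the other, and the treated THP-1 library was the highest of the 4.

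FCGR2B, the inhibitory receptor, was scarce and rose in both lines. It had 6 and 20 counts in K562 (log2 change 1.69, interval 0.34 to 3.32, adjusted p = 0.017). In THP-1 it had 9 and 106 counts (0.437 and 5.98 CPM), with a log2 change of 3.77 (interval 2.81 to 4.96, adjusted p = 5.0e-25). FCGR2B and FCGR2A carry opposite signals, and the share of FCGR2B in the counts of the pair rose in K562 from 0.577% (exact binomial interval 0.212% to 1.25%) to 6.62% (4.09% to 10.04%). In THP-1 that share went from 0.475% (0.217% to 0.900%) to 3.14% (2.58% to 3.79%). In K562 both genes contributed, with FCGR2A lower and FCGR2B higher, whereas in THP-1 both rose and FCGR2B rose more. Of the stretches of 150 bases in FCGR2B transcripts, 7.26% also occur in FCGR2C and 0.224% in FCGR2A, so that part of its few counts could be divided differently by another counting program. For FCGR1A, 14.5% of the stretches occur in FCGR1B. The symbols FCGR2C and FCGR1BP (a name of FCGR1B) matched no gene of the deposited counts, so neither was analysed here.

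FCER1G, the signaling γ chain, had 3568 and 3931 counts in THP-1 (173 and 222 CPM). Its log2 change of 0.37 (interval 0.30 to 0.44, adjusted p = 8.4e-28) was past the adjusted p but not the 2-fold threshold. In K562 it had 11 and 1 counts, an 11.2-fold lower level with a wide interval of 1.63 to 482 (adjusted p = 0.00606). The γ chain is needed for FcγRI at the surface, and in THP-1 the ratio of FCER1G to FCGR1A per kilobase went from 6.44 to 3.05, as the receptor gene rose more than its chain.

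**Figure D3:**
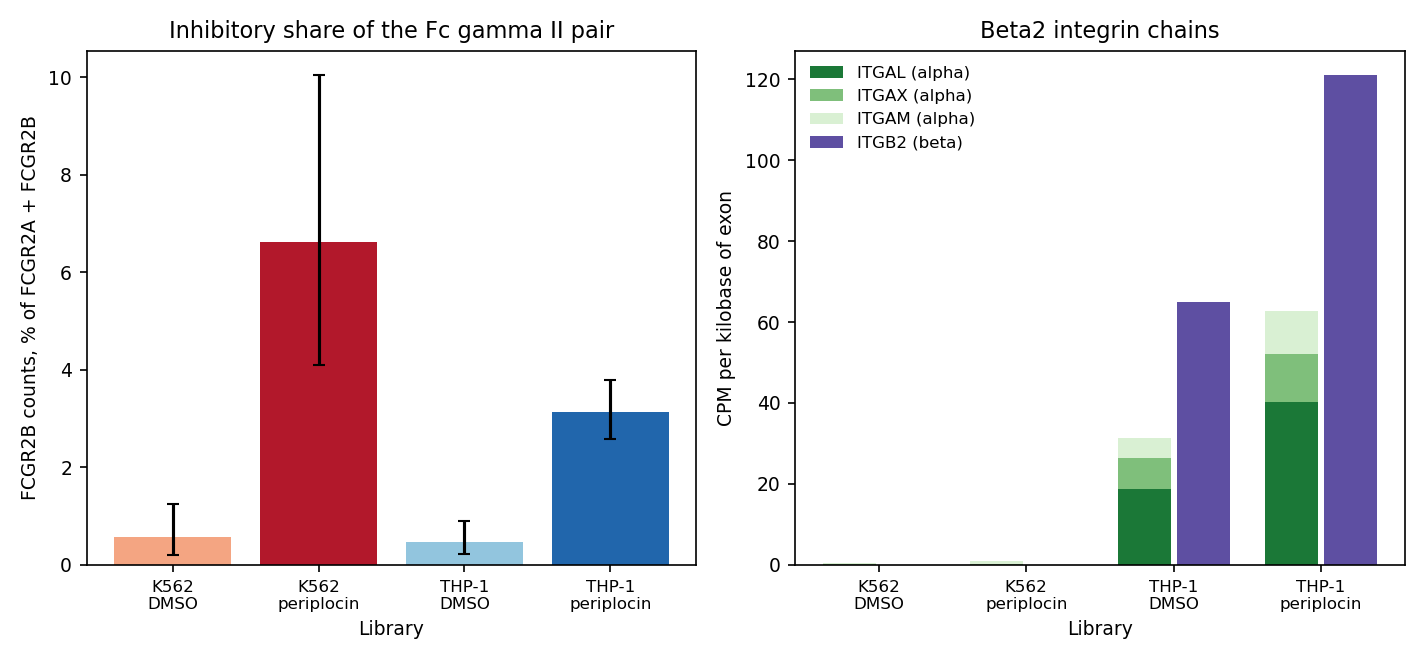
Left, FCGR2B as a percentage of the counts of FCGR2A and FCGR2B in each library, with exact 95% binomial intervals (counting error only). Right, level of ITGB2 beside the stacked α chains ITGAL, ITGAX and ITGAM, in CPM per kilobase of exon, where the K562 bars are too low to see. The inhibitory share rises to 6.62% in K562 and 3.14% in THP-1, and ITGB2 stays at about the same multiple of the α chains in THP-1.

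C3AR1, the receptor for C3a, showed opposite changes in the lines. It had 88 counts in untreated and 1453 in treated THP-1 (4.27 and 82.0 CPM), a log2 change of 4.27 (interval 3.96 to 4.60, with an adjusted p that the software gave as 0). In K562 it had 42 and 5 counts (2.56 and 0.302 CPM), with a log2 change of -3.07 (interval -4.79 to -1.76, adjusted p = 3.2e-08). From untreated levels of 4.27 and 2.56 CPM, the treated lines ended at 82.0 CPM in THP-1 and 0.302 CPM in K562.

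C5AR1, the main receptor for C5a, had 17 counts in each DMSO library (1.04 CPM in K562 and 0.824 CPM in THP-1). With periplocin it had 241 counts in THP-1 (13.6 CPM, log2 change 4.05, interval 3.35 to 4.86, adjusted p = 3.8e-59) and 1 count in K562. The K562 value is 17.3-fold lower, with an interval of 2.71 to 724 (adjusted p = 0.00015). In THP-1 the related receptor C5AR2, which binds C5a without coupling to G proteins, went from 59 to 133 counts (log2 change 1.40, interval 0.95 to 1.87, adjusted p = 3.2e-10). The share of C5AR1 in the counts of both C5a receptors accordingly went from 22.4% (13.6% to 33.4%) to 64.4% (59.4% to 69.3%). The share of C5AR1 in the counts of C5AR1 and C3AR1 was 16.2% (9.72% to 24.7%) before and 14.2% (12.6% to 15.98%) after, with intervals that overlap. In K562, C5AR2 had 9 and 0 counts, which is 3.06-fold lower with the 0 set to a floor of 3 counts, a ratio that leaves out counting error.

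CR1, which binds C3b and C4b, was the receptor whose untreated level was higher in K562 beyond counting error. It had 23 counts in K562 DMSO and 47 in K562 periplocin (1.40 and 2.84 CPM). The log2 change was 1.00 (interval 0.26 to 1.79, adjusted p = 0.0106), just inside the 2-fold threshold, and with a prior count of 2 in place of 0.125 it was 0.95 and outside it. In THP-1 it had 7 counts in each library, and the log2 change of 0.23 had an interval of -1.51 to 1.97 (adjusted p = 0.87), so a change of the size seen in K562 was not detectable at this depth.

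ITGAM, the α chain of complement receptor 3, rose in both lines. It had 33 and 75 counts in K562 (2.01 and 4.53 CPM, log2 change 1.16, interval 0.55 to 1.80, adjusted p = 0.00016). In THP-1 it had 572 and 1063 counts (27.7 and 60.0 CPM, log2 change 1.12, interval 0.98 to 1.27, adjusted p = 1.3e-52). The difference between the lines was -0.03 on the log2 scale, with an interval of -0.64 to 0.58.

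ITGAX, the α chain of complement receptor 4, had 1121 and 1478 counts in THP-1 (54.4 and 83.4 CPM). Its log2 change of 0.63 (interval 0.52 to 0.74, adjusted p = 1.3e-27) did not reach 2-fold. In K562 it had 19 and 23 counts (log2 change 0.25, interval -0.69 to 1.21, adjusted p = 0.74). Within THP-1, the share of ITGAX in the counts of ITGAX and ITGAM went from 66.2% (63.9% to 68.5%) to 58.2% (56.2% to 60.1%).

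ITGB2, the β chain of both receptors, was the most abundant of the 10 in THP-1 by CPM, with 9118 and 14569 counts (442 and 822 CPM). The log2 change was 0.91 (interval 0.87 to 0.94, adjusted p given as 0), just outside the 2-fold threshold. In K562 it had 9 and 12 counts (log2 change 0.38, interval -0.98 to 1.81, adjusted p = 0.76). ITGAL, the α chain of LFA-1 and the third partner of ITGB2, rose in THP-1 from 2501 to 4621 counts (log2 change 1.12, interval 1.05 to 1.19). Per kilobase of merged exons, ITGB2 stood at 2.08 times the sum of ITGAL, ITGAM and ITGAX in untreated and at 1.93 times in treated THP-1. ITGAL made up 59.9% and 64.3% of that sum, ITGAM 15.6% and 16.8%, and ITGAX 24.6% and 18.8%. In K562 the β chain was below the α chains, at 0.145 and 0.101 times their sum, which there was at most 1.06 CPM per kb and mostly ITGAM (63.7% and 75.3%). ITGAD, the remaining partner, had 2 counts in THP-1 periplocin and 0 elsewhere.

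The responses of the lines were compared by a likelihood ratio test of the interaction of line and treatment over 13584 genes, at the counting error alone. Of the 10 receptors, 6 differed between the lines at an adjusted p under 0.05, against 58.5% of all genes, so most genes of any kind pass this test and the sizes carry more than the count. All 6 were more positive in THP-1, as were 3764 of the 7942 genes that passed (27.7% of all tested). The difference of log2 changes, THP-1 minus K562, was 8.01 for C5AR1 (SE 1.53) and 7.34 for C3AR1 (SE 0.70). It was 3.87 for FCGR1A (SE 1.11), 3.71 for FCER1G (SE 1.51), 2.92 for FCGR2A (SE 0.11) and 2.08 for FCGR2B (SE 0.84). Apart from FCGR2B, which rose in both, these genes fell in K562 and had a positive change in THP-1. The 3 integrin chains and CR1 did not pass, with differences of -0.03 for ITGAM, 0.38 for ITGAX (interval -0.50 to 1.27), 0.52 for ITGB2 (interval -0.73 to 1.77) and -0.78 for CR1 (interval -2.45 to 0.90). Those intervals are wide, and they do not show that the lines responded alike.

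**Figure D4:**
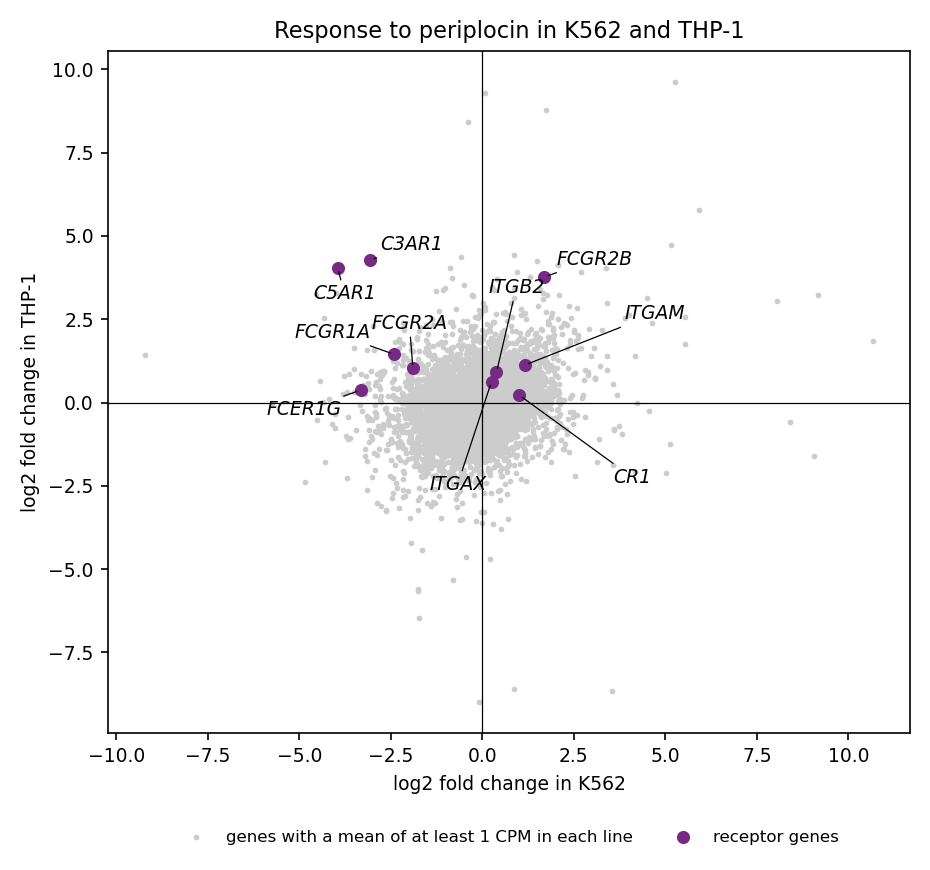
Log2 fold change with periplocin in K562 (x) against THP-1 (y) for 10780 genes whose mean reached 1 CPM in K562 and in THP-1 (gray) and the 10 receptor genes (purple), 6 of which stayed under that mean in K562 or in THP-1. C3AR1 and C5AR1 lie at the upper left edge of the cloud and FCGR2B at the upper right. The integrin chains lie above and to the right of its center, with ITGAM past a 2-fold rise on both axes.

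A response shared by the lines was sought with edgeR's quasi-likelihood test over all 4 libraries, which takes the disagreement of the lines as error and has 1 residual degree of freedom. It called 0 of 13584 genes at an adjusted p under 0.05, while 1535 genes (11.3%) had an unadjusted p under 0.05, and DESeq2 with the same terms called 125 of 11740 genes (1.06%). Among the receptors, ITGAM (shared log2 change 1.15, unadjusted p = 0.0161) and FCGR2B (2.83, unadjusted p = 0.0187) had an unadjusted p under 0.05, and their adjusted p-values in that test were 0.376 or above.

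Genes of the surrounding pathway were described by lists, whose counts are read against the 18.0% of all genes called in THP-1 and 18.3% in K562. These lists, too, were chosen with earlier results known. Of the Fc receptors and their signaling subunits, 7 rose and 1 fell of 21 with counts in THP-1, and 4 rose and 4 fell of 17 in K562. Besides the receptors above, FCGRT, the neonatal Fc receptor that recycles IgG, rose in THP-1 from 2003 to 4415 counts (log2 change 1.37), and TYROBP, an ITAM adaptor related to the γ chain, from 1348 to 2458 (log2 change 1.10). In K562, FCGRT had 15 and 10 counts and TYROBP 3 and 10, and neither was called.

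Downstream of the Fc receptors, the list of kinases, phosphatases and adaptors gave 3 calls in THP-1, with 2 higher and 1 lower of 37 (8.11%, against 18.0% of all genes) and a median log2 change of 0.16. SRC, a kinase that phosphorylates ITAMs, went from 192 to 441 counts (log2 change 1.43), and WAS, which drives actin assembly at the phagocytic cup, from 1717 to 3061 (1.06). In K562, 5 fell and 1 rose of 36 with a median of -0.45, and this share of 16.7% is near the 18.3% of all genes. The adaptor LCP2 (SLP-76) went from 987 to 112 counts (log2 change -3.16), the scaffold GAB2 from 6293 to 1836 (-1.80), SRC from 168 to 61 (-1.49), the Rac activator DOCK2 from 143 to 58 (-1.33) and the phosphatase PTPN6 (SHP-1) from 122 to 56 (-1.15). SYK itself was at 21 and 10 counts in K562 and at 6199 and 5744 in THP-1, and it was called in neither.

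Complement receptors as a list gave 5 higher and 0 lower of 9 in THP-1, and 4 higher and 3 lower of 11 in K562. C3AR1, C5AR1 and ITGAM, already described, are among these calls in both lines, and CR1 in K562. In K562 the risers outside the 10 were CR1L, a CR1-like gene, with 285 and 760 counts (log2 change 1.39) and CD93, a receptor linked to the uptake of cells, with 35 and 132 counts (1.88). No stretch of 150 bases was common to CR1 and CR1L. Among the membrane complement regulators, which protect a cell from its own complement, CD59, CD46 and CR1 rose in K562 and CD55 and CD59 in THP-1. CD59 had 2822 and 9320 counts in K562 (log2 change 1.70) and 276 and 507 in THP-1 (1.11), CD46 had 4708 and 10889 in K562 (1.18), and CD55 had 488 and 1032 in THP-1 (1.31). CD55 in K562 (3064 and 4248 counts, 0.44) and CD46 in THP-1 (6083 and 5922 counts, 0.19) did not reach 2-fold.

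Soluble complement components moved both ways in THP-1, with 4 higher and 3 lower of 22, and were mostly higher among those called in K562, with 6 higher and 1 lower of 20. C1R, a protease of the classical pathway, went from 35 to 134 counts in K562 (log2 change 1.91), C4B from 80 to 195 (1.26), and in THP-1 CFP, which stabilizes the alternative pathway convertase, from 583 to 1338 (1.43). C4B has the near-identical copy C4A, so its counts are uncertain. C5, the source of C5a, was the component that fell in K562, from 130 to 20 counts (log2 change -2.72; below the mean level of 5 CPM set for naming genes, and singled out after its value was seen).

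Integrin activators and linkers, which switch integrins on from inside the cell, gave 3 higher and 1 lower of 20 in THP-1 (median 0.34) and 0 higher and 4 lower of 20 in K562 (median -0.49). The share called, 20% in each line, is near that of all genes (18.0% and 18.3%). FERMT3 (kindlin-3) rose in THP-1 from 2180 to 4303 counts (log2 change 1.21) and RASSF5 (RAPL) from 1796 to 3508 (1.20). RASGRP2, an activator of Rap1, fell in THP-1 (2235 to 661 counts, -1.53) and in K562 (247 to 32 counts, -2.97). K562 also had lower FERMT2 (382 to 78 counts, -2.32), FLNA (filamin A, 35261 to 7904, -2.18) and ZYX (zyxin, 1862 to 682, -1.48), which belong to the links between integrins and actin. Of the ligands of the β2 integrins, 4 rose and 2 fell of 10 in THP-1, led by ICAM1 (63 to 506 counts, log2 change 3.23) and F11R (744 to 2086, 1.72), and 1 fell and 0 rose of 11 in K562.

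The phagocyte NADPH oxidase, which makes superoxide when these receptors are engaged, gave 3 higher and 0 lower of 7 in THP-1. CYBB, its catalytic subunit, rose in THP-1 (321 to 837 counts, log2 change 1.61) and in K562 (90 to 249 counts, 1.44). NCF4 (2568 to 5107 counts, 1.22) and NCF1 (583 to 1134, 1.19) rose in THP-1, and NCF1 has near-identical pseudogene copies. CYBA (0.41 in K562 and 0.60 in THP-1), RAC2 (-0.96 and 0.08) and CYBC1 (-0.70 and -0.43) did not reach a 2-fold change in either line, and NCF1 and NCF4 had at most 5 counts in K562. Scavenger and engulfment receptors gave 3 higher and 2 lower of 19 in THP-1 and 3 higher and 1 lower of 15 in K562. CD36 rose in both (616 to 2162 counts in THP-1, 2.04, and 35 to 218 in K562, 2.61), CD68 rose in THP-1 (3069 to 5957, 1.19), LRP1 rose in K562 (121 to 472, 1.94) and TYRO3 fell there (795 to 331, -1.29). The remaining calls in these lists fell outside the rule for naming, mostly for their low level, and are listed with their values already seen. In K562 they were MS4A2, PIGR, CD247, PLCG1, C1S, CFI, MASP2, VTN and MRC1 (higher) and FCRLB and FGG (lower). In THP-1 they were FCAR, FCRL6, VSIG4, C1R, C9, CFB, RAPGEF3, ICAM5, JAM2 and CLEC7A (higher) and MS4A2, BLNK, C1S, C4A, CLU, ICAM2, THY1, MARCO and ADGRB1 (lower).

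**Figure D5:**
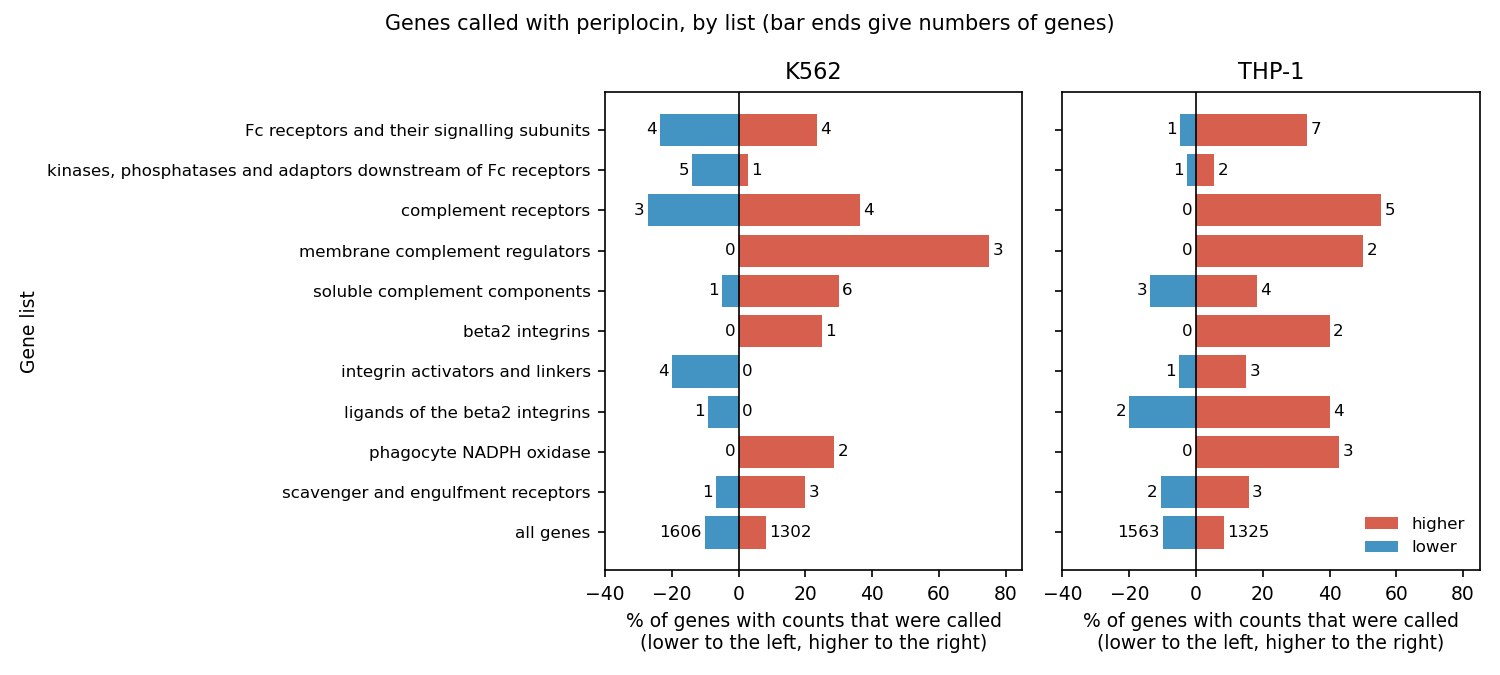
Percentage of the genes with counts in each list that were called higher (red) or lower (blue) with periplocin in K562 and THP-1, with the number of genes at the bar ends and all genes in the last row. In THP-1 each list has a red bar, the longest being that of the complement receptors (5 of 9 genes), and in K562 the integrin activators and the β2 integrin ligands have none. The lists of Fc receptors, complement receptors, membrane regulators and β2 integrins include receptors of the 10. C3AR1, C5AR1 and ITGAM are among the 5 complement receptors called in THP-1.

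By pattern over the 4 libraries, the genes nearest to the most abundant receptor of each family were found among 12943 genes, with the distance taken between log2(CPM + 1) values centered on each gene's mean. FCER1G was nearest to HCLS1 (distance 0.180), SYK (0.251) and ATP8B4 (0.316). ITGB2 was nearest to CHI3L1 (0.496), IL6R (0.506) and FRY (0.511), all high in THP-1 and near 0 in K562. C3AR1 had no such close neighbors, and the nearest were S100A10 (1.17), IGFBP3 (1.21) and CD86 (1.25). With 4 points, these distances describe the libraries only.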

How the data were processed

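RNA of 4 libraries, K562 and THP-1 cells in DMSO or 100 nM periplocin for 72 h, was analysed from 1 deposited table of expected counts per gene, which the authors had not normalized or pooled. They had enriched poly-A RNA and sequenced paired ends of 150 bases. The submitters' processing notes name HISAT2, StringTie 1.3.1 and hg38, while the counting program, annotation and use of strand are not given in the sources used here, and the labels and the methods name different sequencing platforms. Over all genes, zeros included, between 87.4% and 88.3% of a library's expected counts are exactly whole. Where the decimals come from was not tested, and if reads were divided between genes, counting error is a lower limit. Exons of FCGR1A, CR1 and ITGB2 overlap annotated antisense genes, whose reads cannot be told apart without strand. Columns of the table that were not used numbered 0.

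Identifiers gave symbols for 20310 of 20348 genes, and 20118 were found in GENCODE release 29 (GRCh38), which gave positions and exon lengths. Exon length was that of all annotated exons of a gene merged, not of 1 transcript. Promoter windows came from RefSeq on GRCh38.p14. CPM is the count scaled to the library total, with exact Poisson intervals. Counts were rounded, TMM factors were taken within each line, and edgeR 4.0.16 in R 4.3.3 gave the exact binomial test at a dispersion of 0 over genes detected in the pair (minimum 1 count), with Benjamini-Hochberg adjustment over all of them. This compares libraries, not conditions. The call needed an adjusted p under 0.05 and a log2 change of 1 or more in size (prior count 0.125). For the fits over 4 libraries, 2 libraries had to reach 10 counts. The interaction was a likelihood ratio test at a dispersion of 0, and the shared response used the quasi-likelihood test, with DESeq2 1.42.0 as the alternative (1844 genes without an adjusted p stayed out). A count of 3 was the floor for a fold against 0. The binomial, interaction and quasi-likelihood tests, but not DESeq2, were run on simulated counts before use. For the binomial and interaction tests these counts held counting error only. They cannot show how often a spread between cultures would give a call. Python 3.11.15 with pandas 2.3.3, scipy 1.17.1 and matplotlib 3.10.9 was used for shares and figures.

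The 10 receptors and all lists were chosen with earlier results of these data known. Genes of a list of 8 or fewer were all named, apart from an item that is not reported here, and in longer lists up to 5 called genes per line with a mean of at least 5 CPM and the largest change. The likeness search was limited to genes averaging 1 CPM or more. The alternatives tried were other dispersions (0.01, 0.04 and 0.16), scaling by the size factors of DESeq2 or by total counts, no filter or filters at 10 counts or 1 CPM, a prior count of 2, and a threshold of 2 on the size of the log2 change.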

Additional observations from a re-analysis of the deposited data

Results flagged for a closer look

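For 6 of the 10 receptor genes the response to periplocin differed between the lines by the test of the interaction of line and treatment (edgeR, likelihood ratio, adjusted over 13584 genes), which 58.5% of all genes passed. The difference of log2 changes, THP-1 minus K562, was 8.01 for C5AR1 (adjusted p = 6.2e-18) and 7.34 for C3AR1 (adjusted p = 1.1e-45), the receptors for C5a and C3a. It was 3.87 for FCGR1A (adjusted p = 3.2e-05), 3.71 for its γ chain FCER1G (adjusted p = 0.00085) and 2.92 for FCGR2A (adjusted p = 5.6e-203). For the inhibitory FCGR2B, which rose in both lines, it was 2.08 (adjusted p = 0.033). These p-values cover counting error in 4 libraries. In K562 periplocin the counts behind them were 1 for C5AR1 and FCER1G, 2 for FCGR1A and 5 for C3AR1, while FCGR2A had 282.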

How the results depend on the processing

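Filters, dispersions and the threshold leave a log2 change as it is. Only the scaling and the prior count could turn the direction of a receptor gene's change, and neither did. A prior count of 2 did shrink the changes that rest on few counts in K562. It moved C5AR1 from -3.95 to -2.68, FCER1G from -3.33 to -2.13 and FCGR1A from -2.41 to -1.72. The better counted FCGR2A moved only from -1.90 to -1.89. Over all results computed here, 438 values were labelled the same, 112 weaker and 1 stronger. For a single gene, the same means that it kept its side of the threshold. A number of genes could shift somewhat and keep that label, as when the 6 receptors called in THP-1 became 4 at a dispersion of 0.04. A dispersion stands for a spread between cultures, which 1 library per condition cannot measure. The genes called in K562 went from 2908 to 1728 at a dispersion of 0.04, 100 at 0.16 and 960 with an absolute log2 change of at least 2, and those in THP-1 from 2888 to 1622, 88 and 968. Of the receptors, 8 called in K562 became 3 (FCGR2A, C3AR1 and C5AR1), 0 and 4 under the same settings, and 4 with a filter at 1 CPM. The 6 called in THP-1 became 3 at a dispersion of 0.16 and 3 at a log2 change of at least 2, in both cases C3AR1, C5AR1 and FCGR2B. At a dispersion of 0.04, FCGR2A (adjusted p = 0.103) and ITGAM (adjusted p = 0.0685) were no longer called in THP-1. In K562, FCGR1A (adjusted p = 0.074) and CR1 (adjusted p = 0.0508) were already lost at 0.01. Responses that differ between the lines went from 7942 genes to 823 at a dispersion of 0.04 and 39 at 0.16, and from 6 receptors to 2 at 0.16, C3AR1 and C5AR1, with FCGR2B already lost at 0.04 (adjusted p = 0.302). For the shared response DESeq2 called 125 genes where edgeR called 0. Another scaling moved the log2 changes by at most 0.0264. The fit of the shared response already takes the line as a block. No paired analysis was possible within a line because each line and treatment has 1 library and the labels give no replicate numbers, and no library could be left out of a pair. Depth limits K562 most, where 9 of the 10 receptors had 75 counts or fewer in each library.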

Other observations

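Receptors of the same families with too few counts for the rule on named genes, singled out here after their values were seen, also moved in these libraries. VSIG4, the complement receptor of tissue macrophages that binds C3b and iC3b, went from 5 to 89 counts in THP-1 with periplocin (log2 change 4.35, 95% interval 3.11 to 6.04, adjusted p = 1.6e-23), next to C3AR1 and C5AR1 in size. It had 2 and 0 counts in K562. MS4A2, the β chain of the high-affinity IgE receptor and a partner of FCER1G in mast cells and basophils, went from 2 to 24 counts in K562 (ratio 11.8, interval 2.93 to 103, adjusted p = 2.6e-05) and from 17 to 2 in THP-1 (log2 change -2.79, interval -6.01 to -0.78, adjusted p = 0.0036). FCGR3A, the activating IgG receptor of natural killer cells and some monocytes, had at most 5 counts in any library. FCAR, the IgA receptor that signals through the same γ chain, went from 3 to 13 counts in THP-1.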
